A study of Mus musculus with 18 samples.

Results

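Tryptophan and kynurenine metabolism was examined through 8 genes, Ido1, Ido2, Il4i1, Afmid, Kmo, Kynu, Haao and Wars, of the 49585 genes counted in each library. The members were chosen by name and looked up by their Ensembl identifiers, and all 8 were found in the count table. The list was proposed with earlier results of these data in view. Their levels were read in 18 bulk RNA-Seq libraries in 6 groups of 3, made from leukocytes of Kaede mice, whose fluorescent protein turns from green to red under violet light and so marks cells by where they were when lit.

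In the inflamed groups, mice had received OT-II CD4+ T cells polarized to a Th1 phenotype, were immunized with ovalbumin in complete Freund's adjuvant and were challenged with 100 µg of heat-aggregated ovalbumin in the footpad (joint) or the ear pinna (skin). Red cells still at the site formed the joint nonmigrated and skin nonmigrated groups, and red cells recovered from the draining lymph node formed the joint migrated and skin migrated groups. The other groups were labelled as CD45+ leukocytes migrated from the joint or the ear to the lymph node at steady state. The joint-draining steady-state libraries carry PBS and the letters KG in their titles, and the skin-draining ones carry Naive. KG is not explained in the labels. One protocol text stands with all 18 libraries, steady state included, and gives the T cell transfer, the immunization with 100 µg of ovalbumin and a challenge with either PBS or antigen, so which of these steps the Naive mice had is not told apart. Comparisons of a node with steady state, called node changes below, set migrated red cells against the steady-state libraries. No library held all cells of an inflamed node, so inflammation cannot be told apart there from the population sorted. Every library was a pool of mice, so p-values measure the spread between pools. The sort kept all CD45+ cells, so each library is a mixture of cell types, and fewer cells of a type cannot be told apart from less RNA per cell.

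Tryptophan is mostly broken down through kynurenine. Indoleamine 2,3-dioxygenases (Ido1 and Ido2) open its indole ring, the formamidase Afmid releases kynurenine, Kmo hydroxylates kynurenine, Kynu cleaves the product and Haao opens the ring of the resulting acid on the way to quinolinate and NAD. Il4i1 is a secreted amino acid oxidase that also acts on tryptophan, and Wars is the synthetase that charges tryptophan onto its tRNA. In immune tissue the pathway is best known in dendritic cells and macrophages, where interferon gamma induces Ido1 and Wars, and where loss of tryptophan and gain of kynurenines restrain T cells.

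Assigned counts ranged from 19239531 to 22528895 per library in the inflamed skin groups and from 28577566 to 43814403 in the other groups. Skin and joint libraries of the inflamed mice thus differed in depth as well as in site, and these cannot be told apart. Levels are given as CPM, counts scaled to a common library size with the trimmed mean of M-values. A count of 3 was worth 0.0616 to 0.18 CPM. Ptprc, which encodes the CD45 used in the sort, was at 1156 to 2531 CPM in every library. Skin nonmigrated replicate 3 stood apart from its group: its 6 monocyte and macrophage markers summed to 5874 CPM against 2499 to 3408 in the other pair, and its 4 keratinocyte markers to 23.8 against 139 to 281. Its mast cell markers summed to 310 CPM (at most 21.2 in the other pair), its fibroblast markers to 171 (at most 48.8) and its eosinophil markers to 30.8 (at most 5.34). Skin results that changed call or count without it are given both ways.

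The 8 genes are all annotated as protein-coding. On mm10 they lie at chr8:24584136-24597009 (Ido1, minus strand), chr8:24531892-24576333 (Ido2, minus), chr7:44816387-44840809 (Il4i1, plus), chr11:117825924-117839908 (Afmid, plus), chr1:175620381-175662116 (Kmo, plus), chr2:43555329-43682715 (Kynu, plus), chr17:83831156-83847963 (Haao, minus) and chr12:108860030-108894174 (Wars, minus). Ido1 and Ido2 are neighbours on the same strand and share no exon bases. The Kmo span overlaps that of Fh1, fumarate hydratase, on the opposite strand, but 0 exon bases are shared, so a read counted in exons of one is not in exons of the other. Afmid shares 44.2% of its exon bases with Gm20708, a gene model on the same strand that runs through the locus. A further 2.35% lies under Tk1 on the opposite strand. Reads from bases in exons of both genes are left out of the counts, so Afmid may be counted too low. Gm20708 itself was at 0.0443 to 0.336 CPM in every library.

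The start regions of Kmo and Haao are shown because both were lower in migrated cells than in the steady-state node at each site. Each window holds 250 bases before and 50 bases after the RefSeq start on GRCm38.p6, at chr1:175631943-175632242 (plus strand) for Kmo and at chr17:83846741-83847040 (minus strand) for Haao. Capitals mark the only match to the motifs searched, a PU box (GAGGAAGT), the kind of site bound by the myeloid and B cell factor PU.1.

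Kmo: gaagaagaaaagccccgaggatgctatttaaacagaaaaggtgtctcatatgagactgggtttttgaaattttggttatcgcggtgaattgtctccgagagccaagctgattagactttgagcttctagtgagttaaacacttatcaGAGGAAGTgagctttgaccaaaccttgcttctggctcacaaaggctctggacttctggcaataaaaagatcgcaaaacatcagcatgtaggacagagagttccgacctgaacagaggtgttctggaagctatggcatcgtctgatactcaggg

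Haao: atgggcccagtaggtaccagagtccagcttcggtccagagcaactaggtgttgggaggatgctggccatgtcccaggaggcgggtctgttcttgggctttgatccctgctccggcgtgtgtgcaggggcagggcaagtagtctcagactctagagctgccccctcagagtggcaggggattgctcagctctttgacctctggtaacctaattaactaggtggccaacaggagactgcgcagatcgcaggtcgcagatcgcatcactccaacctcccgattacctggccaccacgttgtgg

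The match in Kmo began 103 bases before the start. The PU box was added to the search after the Kmo window had been read, and 3.2% of all 32851 RefSeq windows of this length held it on either strand. Of the 4 members with a window, Il4i1 also held it, on the minus strand, and Afmid and Haao did not. None of the other motifs searched on both strands occurred in the 4 windows: the interferon gamma activated site TTCNNNGAA (8.3% of all windows), the interferon-stimulated element, GAAA, any 2 bases and GAAA (3.44%), the ETS-IRF element, GGAA, any 2 bases and GAAA (2.72%), the xenobiotic response element TNGCGTG (5.07%), the octamer ATGCAAAT (1.74%), the ETS site CCGGAAG (8.86%) and the E-box CAGCTG (16.3%). These are descriptions of the letters in the windows. Ido1, Ido2, Kynu and Wars had no window in the table used.

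**Figure D1:**
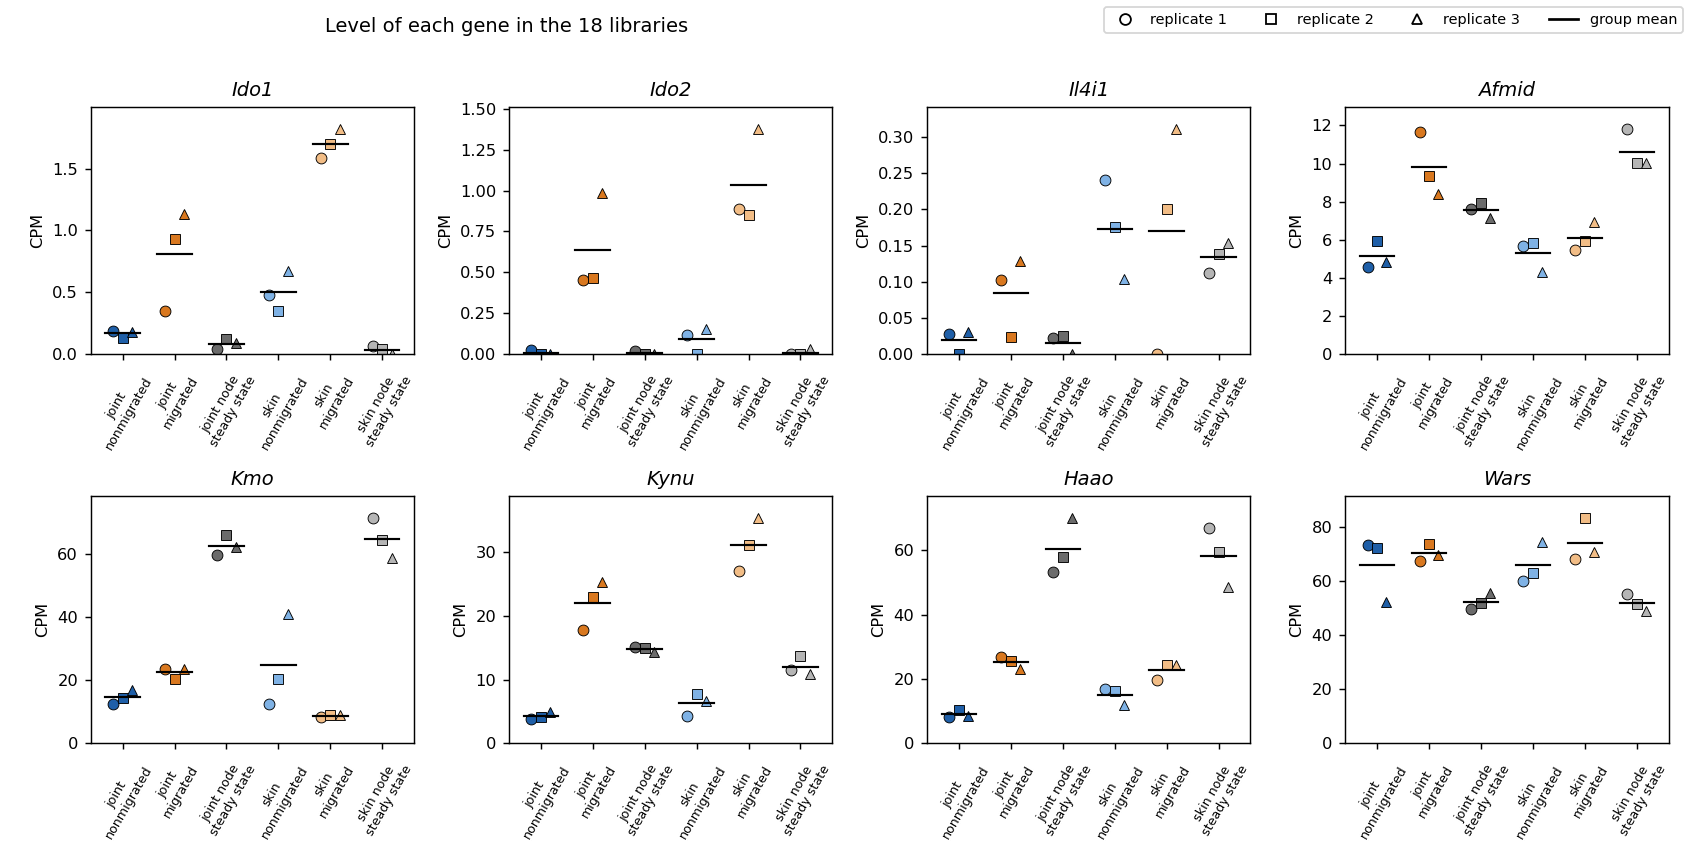
Level of each of the 8 genes in CPM (linear axes from 0, a separate scale for each gene) in every library of the 6 groups, with symbols for replicates and bars for group means. Ido1 and Ido2 were highest in the migrated groups, Kmo and Haao in the steady-state nodes, and Wars stayed between 48.7 and 83.1 CPM in all 18 libraries.

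Ido1, the enzyme best known for opening the pathway in dendritic cells, was scarce in every group and highest in migrated cells. In joint nonmigrated cells it was at 0.192, 0.133 and 0.18 CPM, and in joint migrated cells at 0.349, 0.934 and 1.14 CPM. In skin nonmigrated cells it was at 0.48, 0.351 and 0.676 CPM, and in skin migrated cells at 1.58, 1.7 and 1.82 CPM. All migrated libraries were above all nonmigrated libraries of the same site, and joint migrated replicate 1 was the lowest of the migrated libraries. These levels stand for 17 to 53 reads per migrated library and 4 to 13 per nonmigrated library. The steady-state nodes held 2 to 5 reads in the joint-draining and 0 to 3 in the skin-draining libraries.

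Called differences here and below are those with a Benjamini-Hochberg adjusted p under 0.05 over all genes in edgeR's quasi-likelihood test and an absolute log2 fold change above 1. Ido1 was higher in joint migrated than in joint nonmigrated cells by 2.22 ± 0.47 (log2, SE; adjusted p = 0.00178) and in skin migrated than in skin nonmigrated cells by 1.74 ± 0.45 (adjusted p = 0.00583). The size of this change did not differ detectably between sites, with a difference of 0.48 ± 0.63 (adjusted p = 0.662). Against the steady-state nodes, the summed level was 9.46 times as high in joint migrated cells (95% counting interval 5.09 to 19.5, from 110 against 11 reads) and 41.0 times as high in skin migrated cells (17.0 to 129, from 109 against 5 reads). The intervals cover counting error only. Both differences were called in the edgeR fit (adjusted p = 0.000311 and 6.92e-06). In that fit Ido1 passed the filter on low counts only through the migrated groups, where it was high. Ido1 was lower in joint than in skin nonmigrated cells by 1.56 ± 0.51 (adjusted p = 0.0409), a call that was lost in 10 of 12 fits that each left out 1 library, with adjusted p from 0.0147 to 0.116. Between joint and skin migrated cells the difference was -1.07 ± 0.41 and was not called (adjusted p = 0.21).

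Ido2, the paralogue of lower activity, was likewise highest in skin migrated and then joint migrated cells and was close to absent elsewhere. It had 22, 20 and 46 reads in joint migrated cells (0.452, 0.467 and 0.986 CPM) and 19, 17 and 31 in skin migrated cells (0.885, 0.849 and 1.37 CPM). Joint nonmigrated cells and both steady-state groups had 1 read each over their 3 libraries, and skin nonmigrated cells had 2, 0 and 3 reads. No library outside the migrated groups reached the lowest migrated library. The ratio of summed CPM was 63.6 (95% counting interval 11.1 to 2542) for joint migrated over joint nonmigrated cells and 11.1 (4.52 to 35.3) for skin migrated over skin nonmigrated cells. Against the steady-state nodes it was 83.3 (14.6 to 3327) at the joint and 126 (21.9 to 5051) at the skin. All 4 differences were called (adjusted p = 0.000254, 0.00169, 3.98e-05 and 9.62e-06 in the edgeR fits). Ido2 passed the filter on low counts only through the migrated groups, where it was high, so these calls are not separate evidence of that. Fitted log2 fold changes against a single read depend on the prior count and are not given as sizes. Ido2 did not differ detectably between joint and skin migrated cells (log2 difference -0.70 ± 0.52, adjusted p = 0.543).

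Il4i1 could hardly be measured. It had 0 to 7 reads in each library, at most 0.31 CPM, and did not pass the filter on low counts in either fit. Of its exon bases, 83.9% lie under exons of Tbc1d17 on the opposite strand, and that gene was at 39.4 to 132 CPM. Of 542 genes in the table with at least 95% of their exon bases under opposite-strand exons, 517 averaged fewer than 1 read per library (95.4%, against 55.2% of all genes). Low counts of Il4i1 are thus not read as low expression. The highest group means were 0.173 CPM in skin nonmigrated and 0.17 CPM in skin migrated cells, and neighbouring groups in the order of levels overlapped throughout.

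Afmid, the formamidase of the second step, was measured at 4.31 to 11.8 CPM in all libraries. It was at 4.6, 5.95 and 4.84 CPM in joint nonmigrated, 11.6, 9.37 and 8.4 in joint migrated, 5.7, 5.85 and 4.31 in skin nonmigrated and 5.45, 5.94 and 6.96 in skin migrated cells. The joint groups did not overlap and the skin groups did. The joint difference of 0.94 ± 0.20 (log2; adjusted p = 0.00203) was under the fold threshold, and was called without joint migrated replicate 3 (1.07) or without joint nonmigrated replicate 2 (1.05). The skin difference of 0.21 ± 0.21 did not pass the test (adjusted p = 0.412), and the 2 changes did not differ detectably (0.73 ± 0.29, adjusted p = 0.136). Without skin nonmigrated replicate 3 this difference was 0.85 (adjusted p = 0.0488), under the fold threshold. In the steady-state nodes it was at 7.63, 7.95 and 7.12 CPM (joint-draining) and 11.8, 10.1 and 10 CPM (skin-draining). Joint migrated cells were above their steady-state node by 0.41 ± 0.15 (adjusted p = 0.0409) and skin migrated cells below theirs by 0.76, the fitted difference being -0.76 ± 0.16 (adjusted p = 0.000886), both under the fold threshold. These changes in the node differed between the sites by 1.17 ± 0.22 (adjusted p = 0.00541), which was called.

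Kmo, which commits kynurenine to the branch towards NAD, was highest in the steady-state nodes. Its change from nonmigrated to migrated cells differed by site. It was at 59.7, 66 and 62.4 CPM in the joint-draining and 71.5, 64.7 and 58.8 CPM in the skin-draining steady-state libraries. In inflamed mice it was at 23.6, 20.2 and 23.7 CPM in joint migrated and 8.24, 9.04 and 8.82 CPM in skin migrated cells. Nonmigrated cells held 12.3, 14.3 and 17 CPM at the joint and 12.5, 20.4 and 41.1 CPM at the skin, where replicate 3 was the high library. Joint migrated cells were thus above joint nonmigrated cells, while skin migrated cells were below skin nonmigrated cells, with no overlap at either site.

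Kmo was lower in migrated cells than in the steady-state node by 2.72-fold at the joint (log2 -1.44 ± 0.10, adjusted p = 1.05e-07) and by 7.31-fold at the skin (-2.87 ± 0.11, adjusted p = 6.76e-10). The 2 changes differed by 1.42 ± 0.14 (adjusted p = 8.24e-05). Between migrated and nonmigrated cells it fell by 1.51 ± 0.33 at the skin (log2; adjusted p = 0.00228), whereas the joint difference of 0.63 ± 0.32 did not pass the test (adjusted p = 0.114, and 0.0114 without skin nonmigrated replicate 3, with the value still under the fold threshold). The test of the difference between sites gave 2.14 ± 0.46 (adjusted p = 0.0178). Without skin nonmigrated replicate 3 the skin value was -0.92 (adjusted p = 0.00316), under the fold threshold, and the difference between sites was 1.55 (adjusted p = 0.00319), still called. Without joint nonmigrated replicate 2 the latter was 2.12 with an adjusted p of 0.0502. Joint migrated cells exceeded skin migrated cells by 1.37 ± 0.33 (adjusted p = 0.0613), which was not called in the main fit and was called without skin nonmigrated replicate 3 (1.37, adjusted p = 0.00504). Fh1 was at 25.8, 24.6 and 51.8 CPM in skin nonmigrated cells and at 27.7 to 47.3 CPM in all other libraries, so in skin nonmigrated replicate 3 both genes of the overlapping pair were high.

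Kynu, the kynureninase that cleaves the product of Kmo, rose in migrated cells at both sites. It was at 3.78, 4.15 and 4.96 CPM in joint nonmigrated and 17.7, 23 and 25.3 CPM in joint migrated cells, and at 4.26, 7.78 and 6.65 CPM in skin nonmigrated and 27.1, 31.1 and 35.4 CPM in skin migrated cells. All migrated libraries were above all nonmigrated libraries of either site. The rise was 5.13-fold at the joint (log2 2.36 ± 0.23, adjusted p = 7e-06) and 4.98-fold at the skin (2.32 ± 0.23, adjusted p = 8.64e-06), and its size did not differ detectably between sites (0.04 ± 0.31, adjusted p = 0.954). The steady-state nodes lay between, at 15.1, 14.9 and 14.2 CPM (joint-draining) and 11.5, 13.7 and 10.8 CPM (skin-draining). Skin migrated cells were 2.64-fold above their steady-state node (1.40 ± 0.15, adjusted p = 2.11e-06) and joint migrated cells 1.53-fold above theirs (0.61 ± 0.14, adjusted p = 0.00294), under the fold threshold. The difference between these changes was -0.79 ± 0.20 (adjusted p = 0.0264), also under it.

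Haao, which acts after Kynu, shared the steady-state maximum of Kmo but was higher, not lower, in skin migrated than in skin nonmigrated cells. The steady-state libraries held 53.4, 57.8 and 70 CPM (joint-draining) and 67, 59.4 and 48.5 CPM (skin-draining). Joint migrated cells held 26.7, 25.7 and 23.1 CPM against 8.13, 10.4 and 8.51 CPM in joint nonmigrated cells, a 2.79-fold rise (log2 1.48 ± 0.17, adjusted p = 2.15e-05). Skin migrated cells held 19.8, 24.4 and 24.2 CPM against 16.9, 16.2 and 11.7 CPM in skin nonmigrated cells, a difference of 0.61 ± 0.17 (adjusted p = 0.00855) under the fold threshold. No migrated library overlapped a nonmigrated one. The changes differed between sites by 0.87 ± 0.23 (adjusted p = 0.043), again under the fold threshold, and by 1.02 without skin nonmigrated replicate 3 (adjusted p = 0.0055), above it. Against steady state Haao was lower by 2.35-fold in joint migrated cells (-1.23 ± 0.14, adjusted p = 8.46e-06) and by 2.5-fold in skin migrated cells (-1.32 ± 0.14, adjusted p = 2.96e-06), with no detectable difference between the 2 changes (0.09 ± 0.20, adjusted p = 0.802).

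**Figure D2:**
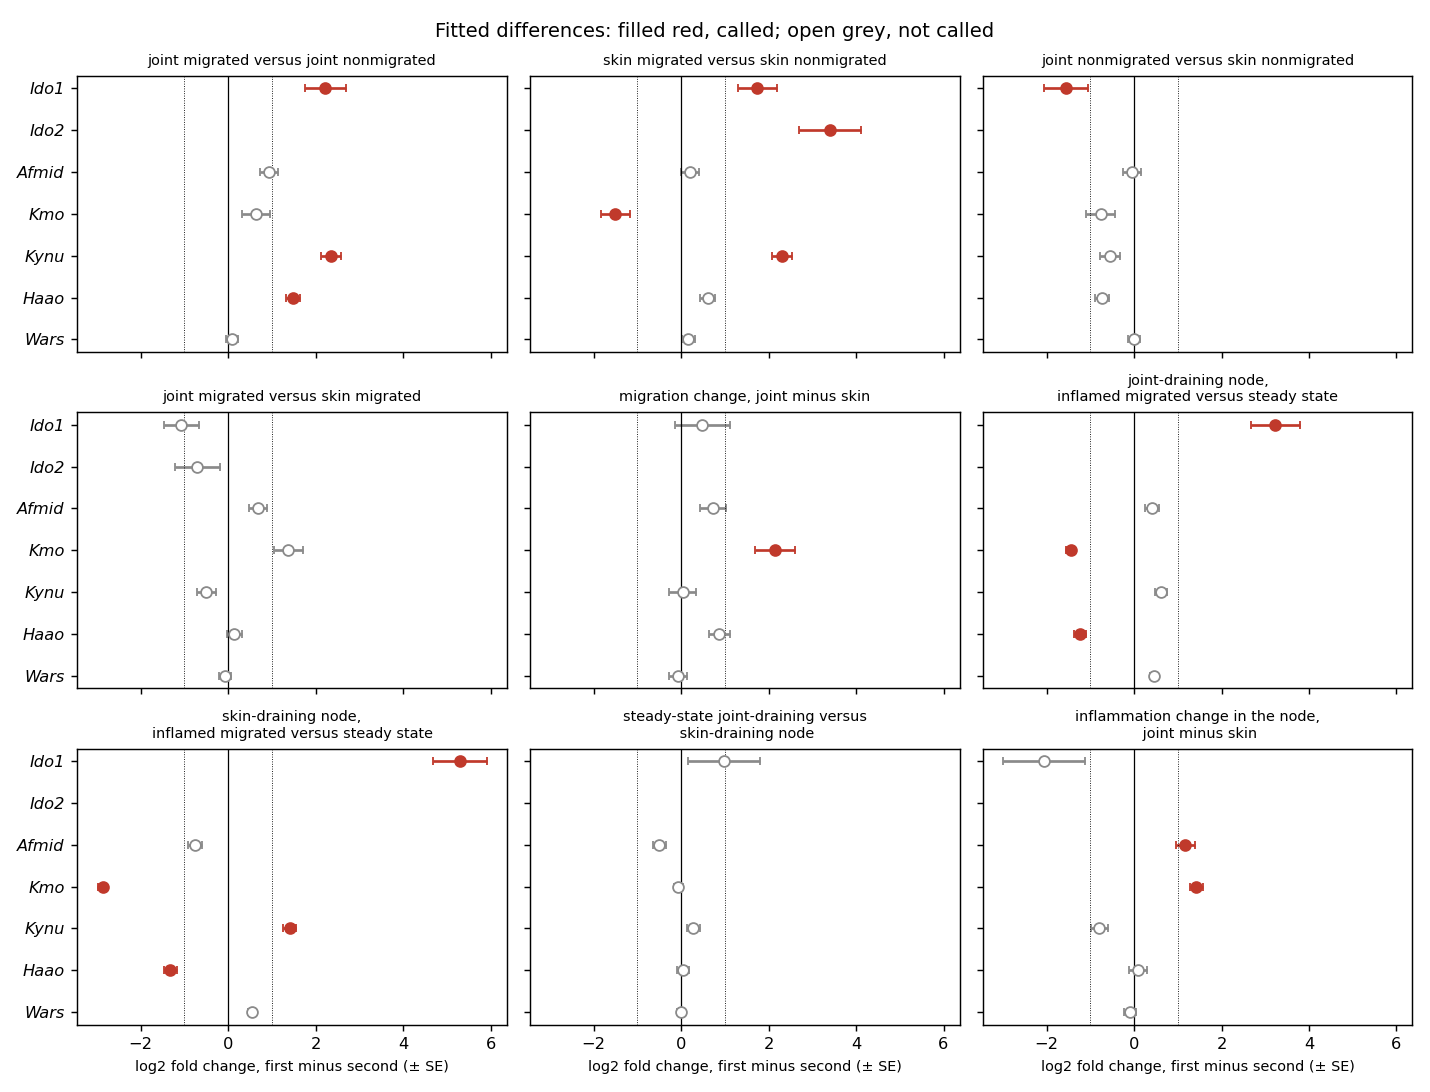
Fitted log2 fold changes (± SE) of the members in the 9 comparisons, filled red where called and open grey where not, with dotted lines at the fold threshold. Il4i1 was not tested, and Ido2 is drawn only where neither group held as few as 1 read. Kmo was called lower in skin migrated cells, while its joint value of 0.63 was positive and not called.

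The 3 enzymes that follow kynurenine were set against each other within each library, per kilobase of exon, since a ratio within a library does not depend on its total. Kynu was 0.223 to 0.236 of Kmo in joint nonmigrated cells, 0.124 to 0.293 in skin nonmigrated cells, 0.173 to 0.194 in the joint-draining and 0.124 to 0.163 in the skin-draining steady-state node. It was 0.577 to 0.874 of Kmo in joint migrated cells and 2.52 to 3.08 times Kmo in skin migrated cells. Of the 6 groups, Kynu exceeded Kmo in the skin migrated libraries alone. Haao was 0.832 to 1.13 of Kmo in the steady-state libraries, 0.985 to 1.28 in joint migrated cells and 2.42 to 2.77 in skin migrated cells. In skin nonmigrated cells it ran from 0.289 in replicate 3 to 1.36 in replicate 1.

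**Figure D3:**
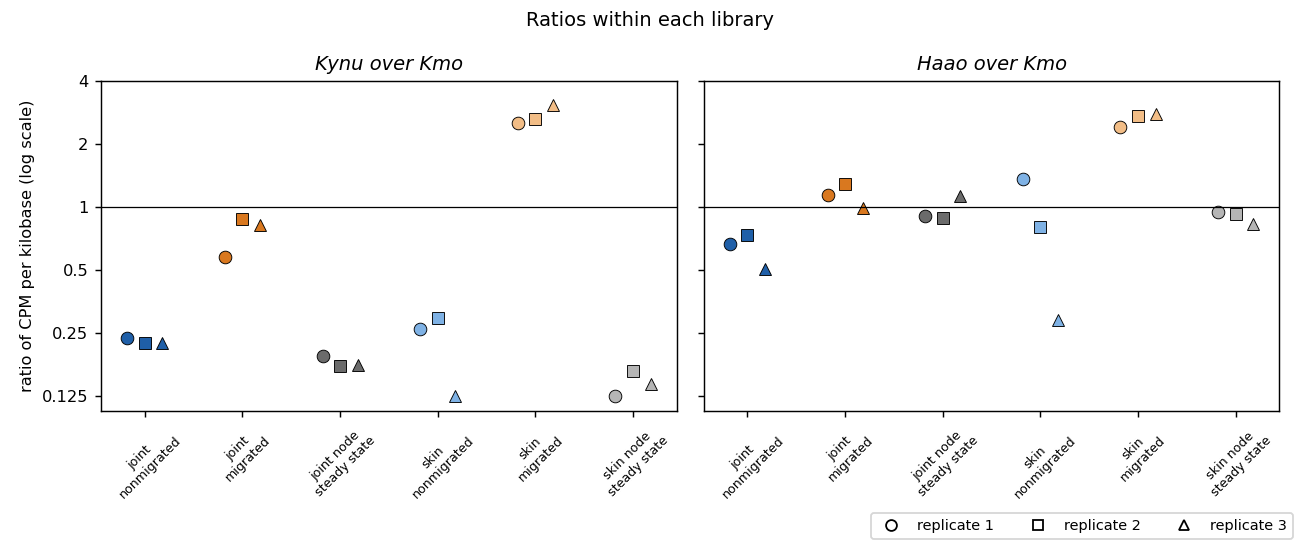
Ratio of Kynu to Kmo (left) and of Haao to Kmo (right) within each library, in CPM per kilobase on a log axis, with symbols for replicates and a line at 1. The skin migrated libraries sit at 2.52 to 3.08 and 2.42 to 2.77, above all others in both panels.

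Wars was the most abundant member per kilobase in every group, from a mean of 15.0 CPM per kilobase in the skin-draining steady-state node to 21.4 in skin migrated cells. It was at 73.2, 72.1 and 52.2 CPM in joint nonmigrated, 67.2, 73.4 and 69.6 in joint migrated, 59.8, 62.9 and 74.4 in skin nonmigrated and 68, 83.1 and 70.7 in skin migrated cells, so all 4 inflamed groups overlapped. The steady-state libraries held 49.4, 51.7 and 55.5 CPM (joint-draining) and 55.2, 51.4 and 48.7 CPM (skin-draining), all below every migrated library. Migrated cells were above steady state by 0.46 ± 0.10 at the joint (log2; adjusted p = 0.00136) and 0.55 ± 0.10 at the skin (adjusted p = 0.000249). Both were under the fold threshold. Migrated and nonmigrated cells did not differ detectably (0.09 ± 0.14 at the joint, adjusted p = 0.603, and 0.17 ± 0.14 at the skin, adjusted p = 0.333).

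Wars was set beside the other cytosolic tRNA synthetases, which charge the other amino acids. In the joint-draining node the Wars difference was above all 19 of them, which ran from -1.02 (Cars) to 0.39 with a median of -0.16. In the skin-draining node 16 of the 19 were below Wars and 3 above, with a median of 0.10. Between migrated and nonmigrated cells Wars was in the middle of the joint values (9 below, 10 above) and in the lower part of the skin values (6 below, 13 above). Of the 19, 1 was called higher in migrated cells at the joint and 2 at the skin, where 16% and 15.7% of all genes were called higher. These were Vars, the valine enzyme (1.03 at the joint and 1.30 at the skin), and Farsb, a phenylalanine subunit (1.01 at the skin). Without skin nonmigrated replicate 3 the isoleucine enzyme Iars was called at the skin too, making 3.

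**Figure D4:**
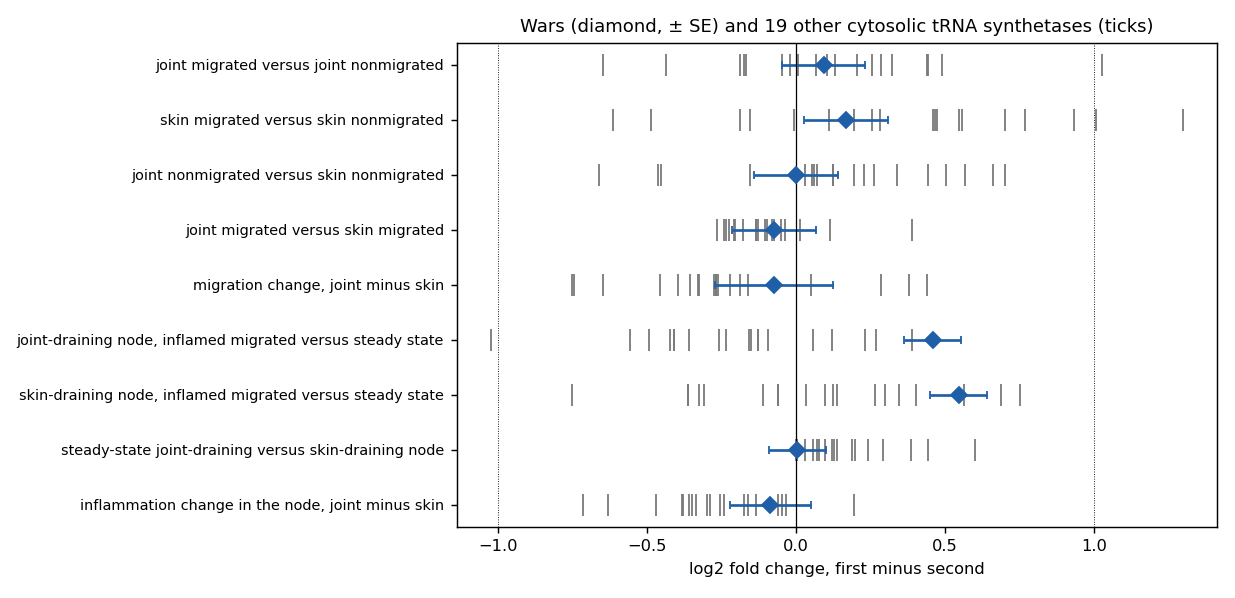
Fitted log2 fold change of Wars (diamonds, ± SE) and of 19 other cytosolic tRNA synthetases (ticks) in the 9 comparisons. In the joint-draining node Wars, at 0.46, lies to the right of all the ticks.

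Counted over the members, 4 of the 7 tested were called higher and 0 lower in joint migrated than in joint nonmigrated cells (Ido1, Ido2, Kynu and Haao), where 16% of all genes tested were called higher and 18.4% lower (34.3% in all). In skin migrated against skin nonmigrated cells 3 were higher (Ido1, Ido2 and Kynu) and 1 lower (Kmo), against 15.7% and 19.7% of all genes (35.4% in all). In joint against skin nonmigrated cells 1 was lower (Ido1), against 8.86% of all genes lower and 5.45% higher (14.3% in all). In joint against skin migrated cells 0 of 7 were called by edgeR, 4 had an unadjusted p under 0.05, and DESeq2 called 1 (Kmo). Of all genes, 1.14% were called there (0.56% higher and 0.578% lower). The difference between the migration changes was called for 1 member (Kmo, higher at the joint), against 6.13% of all genes (3.96% higher and 2.17% lower). Against steady state, 2 were higher and 2 lower in the joint-draining node (24.2% of all genes called, 16.9% higher and 7.31% lower) and 3 higher and 2 lower in the skin-draining node (36.5%, 21.5% higher and 15% lower). Ido1 and Ido2 were higher and Kmo and Haao lower in both nodes, and Kynu was called higher in the skin-draining node. The difference between the node changes was called for 2 (Kmo and Afmid, both higher at the joint), against 6.11% of all genes (2.33% higher and 3.78% lower). Between the 2 steady-state nodes 0 of 7 members were called by edgeR and 0 by DESeq2, with 1 (Afmid) at an unadjusted p under 0.05, against 3.89% of all genes (3.23% higher and 0.655% lower). Ido1 and Ido2 entered the fits only through groups in which they were high, and the comparisons share groups, so the counts do not add up to separate evidence.

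Some of these shares of all genes rested on single libraries. Without skin nonmigrated replicate 3, 14.6% of all genes were called for the difference between the migration changes, 20.7% between the nonmigrated groups and 1.83% between the migrated groups, and the members called were 2 (Kmo and Haao), 0 and 1 (Kmo). For the difference between the migration changes, the main 1029 calls became 582 or 640 without skin nonmigrated replicate 1 or 2, 595 without joint nonmigrated replicate 2, 614 without joint migrated replicate 2 and 668 without skin migrated replicate 1. Between the migrated groups, the main 191 calls became 58 to 63 without any one of joint migrated replicates 1, 2 and 3 and skin migrated replicates 1 and 3. The difference between the node changes went from 1045 to 695 calls without skin-draining steady-state replicate 2. In skin migrated against skin nonmigrated cells the share was 34.1% without skin nonmigrated replicate 3, and Ido1 (2.02, adjusted p = 0.0071), Ido2 (adjusted p = 0.00311) and Kynu (2.37, adjusted p = 3.08e-05) were still called higher in that edgeR fit.

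Cell type markers moved with several of these values. The 8 markers of mature migratory dendritic cells (Ccr7, Fscn1, Ccl22 and others) summed to 3276 to 8336 CPM in joint migrated and 6406 to 8978 CPM in skin migrated cells, and to 445 to 2153 CPM in all other libraries. In migrated against nonmigrated cells 6 of the 8 were called higher at the joint and 7 at the skin, and 1, Ccl17, named here after its values were seen, was lower at both (-1.75 and -1.15). Of all genes, 16% were called higher and 18.4% lower at the joint, and 15.7% and 19.7% at the skin. Joint migrated replicate 1 had the lowest of the migrated sums and also the lowest migrated Ido1 (0.349 CPM) and Kynu (17.7 CPM). The part of these cells in the Ido1, Ido2 and Kynu differences was not tested. The 4 type 2 conventional dendritic cell markers (Cd209a, Sirpa, Clec10a and Mgl2) summed lower in migrated cells. Their sums went from 1502 to 1734 CPM down to 80.1 to 189 CPM at the joint (3 of 4 lower, 0 higher). At the skin they went from 1066 to 2167 CPM down to 166 to 264 CPM (4 of 4 lower). The part of type 2 cells was not tested. T cell markers summed to 145 to 283 CPM in joint nonmigrated and 1145 to 1491 CPM in joint migrated cells (5 of 5 higher). At the skin they summed to 226 to 603 and 1215 to 1289 CPM (4 of 5 higher, and 3 without skin nonmigrated replicate 3). Neutrophil markers went the other way, from 4921 to 15228 CPM down to 32.9 to 85.9 CPM at the joint and from 1556 to 2578 CPM down to 13.3 to 25.5 CPM at the skin (6 of 6 lower at both). Their part in the migration differences was not tested either. The steady-state nodes differed as well. Neutrophil markers summed to 404 to 773 CPM in the joint-draining and 10.8 to 17.5 CPM in the skin-draining node (6 of 6 higher). Monocyte and macrophage markers summed to 290 to 379 and 164 to 186 CPM there (5 of 6 higher), where 3.23% of all genes were higher. The part of these cells in the site differences of the node changes was not tested.

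Markers of type 1 conventional dendritic cells (Xcr1, Clec9a, Batf3, Wdfy4 and Itgae) also differed by site. In migrated against nonmigrated cells 2 of 5 were higher and 0 lower at the joint, while 1 was higher and 3 lower at the skin (2 lower without skin nonmigrated replicate 3). Of all genes, 16% were higher at the joint, and 15.7% were higher and 19.7% lower at the skin. The 1 of 5 higher at the skin is near that share. The difference between the migration changes was called for 3 of 5 and that between the node changes for 2 of 5, all higher at the joint. Of all genes, 3.96% and 2.33% were higher at the joint in these tests. Their sums were 342 to 373 CPM in joint migrated and 205 to 231 CPM in skin migrated cells, 194 to 285 CPM in joint nonmigrated and 201 to 283 CPM in skin nonmigrated cells, and 424 to 544 and 329 to 393 CPM in the joint-draining and skin-draining steady-state nodes. Against steady state 4 of 5 markers were higher and 1 lower at the joint (16.9% and 7.31% of all genes). At the skin 2 were higher and 1 lower (21.5% and 15% of all genes). Kmo was lower at both sites. The part of type 1 conventional dendritic cells in the Kmo values was not tested.

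The 4 B cell markers (Cd79a, Cd79b, Ms4a1 and Pax5) summed to 2952 to 3186 CPM in the joint-draining and 1932 to 2576 CPM in the skin-draining steady-state node, 498 to 709.9 in joint migrated, 86.8 to 158 in skin migrated and 86.4 to 201 in joint nonmigrated cells. In skin nonmigrated cells they summed to 4.56 to 11.1 CPM, while Kmo there was at 12.5 to 41.1 CPM and Haao at 11.7 to 16.9 CPM, so both genes were counted where B cell markers were near 0. All 4 markers were higher in skin migrated than in skin nonmigrated cells (15.7% of all genes were), where Kmo was lower. The part of B cells in the node differences of Kmo and Haao was not tested. Monocyte and macrophage markers summed to 2499 to 6715 CPM in the nonmigrated groups and to 164 to 694 CPM in the others. In skin nonmigrated replicate 3 the high Kmo value stood beside the highest monocyte and macrophage sum of its group and a mature dendritic cell sum of 583 CPM, against 1496 to 2153 in the other pair. The 4 markers of plasmacytoid dendritic cells summed to 109 to 222 CPM in all libraries, but single markers were called. Against steady state 2 of the 4 were lower in skin migrated cells (15% of all genes). In joint migrated cells 1 was higher and 1 lower (16.9% and 7.31% of all genes), so the 1 higher is near that share. In joint against skin migrated cells 2 were higher (0.56% of all genes), and 2 were relatively higher at the joint in the node change (2.33%). The comparisons of migrated with nonmigrated cells called 0, and so did the migration change. Their part in the Kmo values was not tested.

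**Figure D5:**
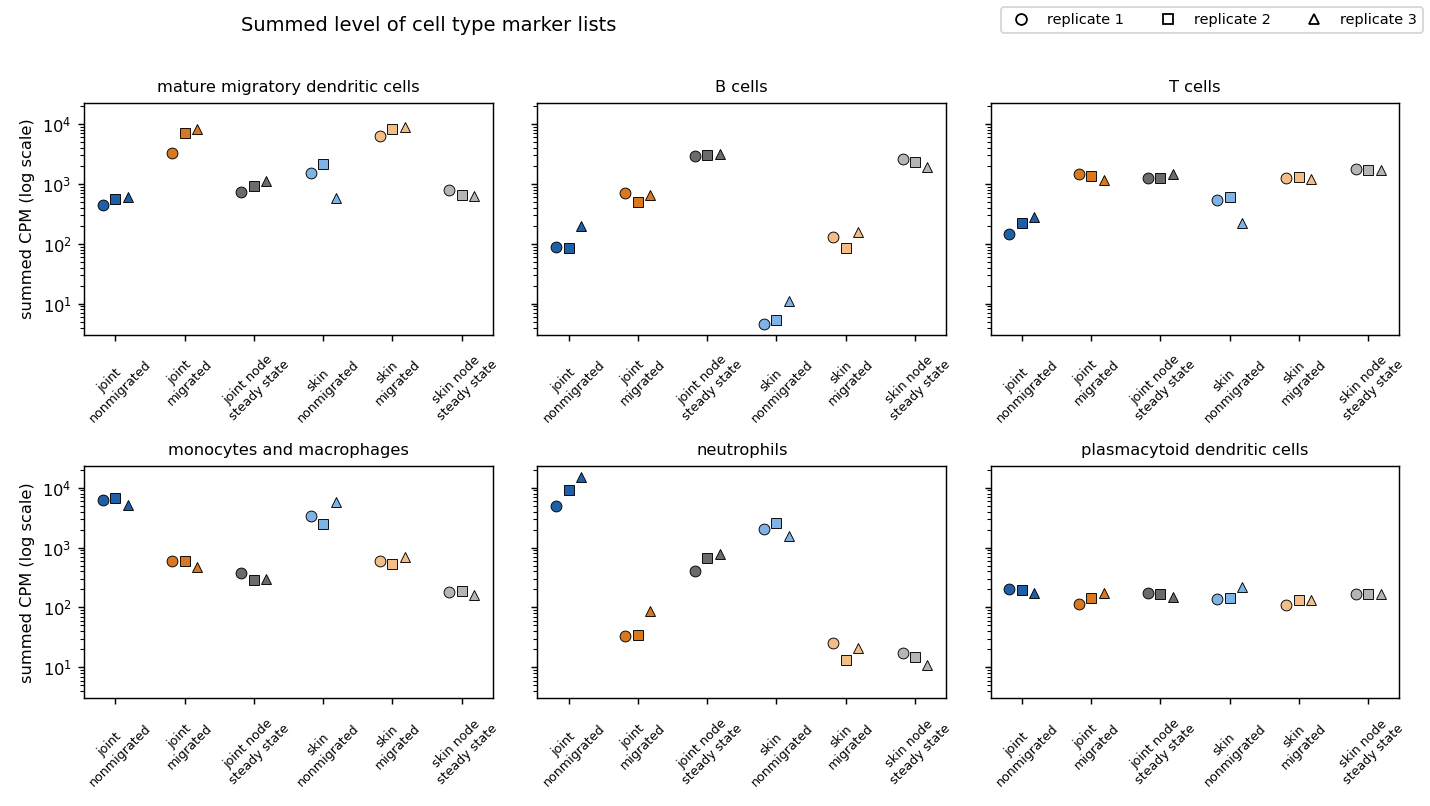
Summed CPM of 6 marker lists (log axes) in every library, with symbols for replicates. Mature dendritic cell sums were highest in the migrated groups (3276 to 8978 CPM) and B cell sums in the steady-state nodes (1932 to 3186 CPM).

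Around the 8 members, 88 further genes were read in 10 lists, of tryptophan, kynurenine and NAD biology and of neighbouring functions. The latter were 19 other tRNA synthetases, 8 genes of the interferon gamma route, 8 of the amino acid shortage response and 6 oxidases. In joint migrated against nonmigrated cells 10 of 76 tested were higher (13.2%, against 16% of all genes) and 14 lower (18.4%, against 18.4%), which is close to all genes or below. At the skin 8 were higher (10.5%, against 15.7%) and 27 lower (35.5%, against 19.7%), and 10 and 25 without skin nonmigrated replicate 3. Without that library the skin counts of the transporters, the NAD and glutarate branches, NAD salvage, the aryl hydrocarbon receptor and the amino acid shortage response were the same as those given below, and the fitted skin values of Slc7a8, Nampt and Tiparp were -6.63, -3.57 and -3.65. Of the 10 tryptophan and kynurenine transporters, 9 were tested. At the joint 2 were higher in migrated cells and 4 lower (median log2 difference -1.20, against 0.02 over all genes). At the skin 1 was higher and 7 lower (median -1.86, against 0.01). Slc7a8, a large neutral amino acid transporter, fell from 241 to 4.44 CPM at the joint and from 501 to 4.36 CPM at the skin (adjusted p = 1.09e-05 and 4.9e-06). Slc16a10, which carries aromatic amino acids, fell by 3.69 and 2.83 on the log2 scale (adjusted p = 1.96e-07 and 6.78e-07). Slc7a5, the main light chain for tryptophan uptake, was higher in joint migrated cells by 1.02 ± 0.29 (adjusted p = 0.0102).

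Downstream of Haao, 2 of 7 tested genes of the NAD and glutarate branches were higher in joint migrated cells and 0 lower (median 0.26), and 1 was higher and 0 lower at the skin (median 0.75). Of all genes, 16% were higher and 18.4% lower at the joint and 15.7% and 19.7% at the skin, so 1 of 7 is near that share. Qprt, which turns quinolinate into a precursor of NAD, rose at the joint by 2.00 ± 0.41 (adjusted p = 0.00149), from a mean of 1.8 to 7.22 CPM. Against steady state it was lower in skin migrated cells by 1.21, the fitted value being -1.21 ± 0.15 (adjusted p = 1.04e-05). Kyat1, an aminotransferase that makes kynurenic acid, rose at the joint (1.36 ± 0.27, adjusted p = 0.00119) and the skin (1.70 ± 0.28, adjusted p = 0.00035), 1 of 3 aminotransferases tested at each site (2 of 3 at the skin, with Kyat3, without skin nonmigrated replicate 3). Of 6 NAD salvage genes, 3 were lower in joint migrated cells (median -1.44), and 4 were lower and 1 higher in skin migrated cells (median -2.80). Nampt, the rate-limiting salvage enzyme, fell from 255 to 63.2 CPM at the joint (adjusted p = 3.35e-06) and from 1061 to 96.2 CPM at the skin (adjusted p = 1.03e-07).

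Kynurenines are ligands of the aryl hydrocarbon receptor. The list read for it held the receptor, its partner Arnt, its targets and also Gpr35, a separate receptor of kynurenic acid. Of 7 tested genes, 3 were lower in joint migrated cells (median -0.83) and 6 in skin migrated cells (median -2.26). At both sites 0 were higher, against 18.4% and 19.7% of all genes lower and all-gene medians of 0.02 and 0.01. Gpr35 was among those lower at both sites. Tiparp, a target gene of the aryl hydrocarbon receptor, fell by 2.30 at the joint and by 3.40 at the skin on the log2 scale (adjusted p = 0.000563 and 4.79e-05). Against steady state the direction was the other one, with 3 of 6 higher in the joint-draining node (median 1.17) and 4 of 6 in the skin-draining node (median 2.43). In both 0 were lower, against 16.9% and 21.5% of all genes higher. Gpr35 was among the 4 in the skin-draining node. Ahr itself rose by 1.42 ± 0.16 (adjusted p = 6.27e-06) and by 3.33 ± 0.17 (adjusted p = 3.95e-09), and the rises differed by -1.90 ± 0.22 (adjusted p = 0.000244). Ahr was also higher in the joint-draining than in the skin-draining steady-state node, at 16.4 against 5.64 CPM (adjusted p = 6.46e-05). Neutrophil and monocyte markers were higher in that joint-draining node too, and their part in the Ahr values was not tested.

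Of 8 genes on the interferon gamma route to Ido1 and Wars, 4 were lower in joint than in skin nonmigrated cells (Ifng, Irf1, Jak2 and Socs1; median -1.12, against 0.01 over all genes) and 0 higher, where 8.86% of all genes were lower. In migrated against nonmigrated cells 2 were higher (Jak2 and Socs1) and 1 lower (Ifngr2) at the joint (median 0.36), and 0 were higher and 2 lower (Ifngr2 and Socs1) at the skin (median -0.57), where Ido1 was higher. Of all genes, 16% were higher at the joint and 19.7% lower at the skin. Without skin nonmigrated replicate 3 the 2 lower at the skin were Ifng and Socs1. Irf1, which drives Ido1 transcription, was at 271 CPM in joint nonmigrated against 688 CPM in skin nonmigrated cells (adjusted p = 0.000299). Against steady state 2 were higher in the joint-draining node (Ifng and Jak2) and 4 in the skin-draining node (Ifng, Irf1, Jak2 and Socs1), and 0 lower, against 16.9% and 21.5% of all genes higher. Ifng rose from 3.28 to 23.5 CPM and from 2.8 to 24.8 CPM (adjusted p = 7.28e-08 and 1.67e-08). Of the exon bases of Ifng, 25.9% lie under exons of another gene, so its level is less certain. Of 8 genes of the response to amino acid shortage, 4 were lower in skin migrated than in skin nonmigrated cells (Chac1, Ddit3, Ddit4 and Trib3; median -1.19), against 19.7% of all genes. The difference between sites was called for Ddit3, Ddit4, Sesn2 and Trib3, each relatively higher at the joint (1.06 to 2.76), against 3.96% of all genes.

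Other users of tryptophan were few. Of 8 listed enzymes, 4 were tested in the inflamed fit. Ddc, which makes serotonin from its precursor, was higher in migrated cells at the joint (1.51 ± 0.43, adjusted p = 0.0104) and the skin (2.74 ± 0.55, adjusted p = 0.00127), at means under 2 CPM. Tdo2, the liver enzyme for the step of Ido1, averaged at most 1.14 CPM in any group. Ido1 was as scarce, with group means of 0.0379 to 1.7 CPM. Against steady state Tdo2 was lower in migrated cells at both sites, where Ido1 and Ido2 were higher. Of 5 enzymes tested there, Tph1 was higher and Aldh2 and Tdo2 lower at the joint (16.9% and 7.31% of all genes). At the skin 0 were higher and Aldh2, Ddc and Tdo2 lower (21.5% and 15%). The difference between these changes was called for Tdo2, relatively higher at the joint (2.33%). Among 5 tested amine and amino acid oxidases, Dao, an oxidase of D-amino acids, was higher in migrated cells at the joint (5.33 ± 0.57, adjusted p = 1.41e-05) and the skin (3.35 ± 0.50, adjusted p = 0.000159), at 4.2 and 5.54 CPM, and Smox, spermine oxidase, was lower at both (-1.65 ± 0.25 and -5.06 ± 0.29, adjusted p = 0.000203 and 1.87e-07).

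Across the 18 libraries, Kmo and Haao correlated at r = 0.73 and Afmid and Haao at r = 0.75, while Kmo and Kynu did not move together (r = -0.06). Kmo and Wars gave r = -0.71. These describe log2 (CPM + 1) over libraries that share groups, and no test was made. The protein-coding genes most like Kmo among 12145 were Ccr9 (r = 0.94), a chemokine receptor, and Ccdc134, Rhbdd2, Pxk and Prpf40b (r = 0.93 to 0.94). Ccr9, also among the plasmacytoid dendritic cell markers, had its highest means in the steady-state nodes too, at 37.1 and 57.4 CPM. It was at 4.26 CPM in skin migrated cells. Kynu was most like Dpp4 (r = 0.97), a surface peptidase, then Galnt12, Mllt1, Crebl2 and Zfp809. Haao was most like Trim26 and H2-DMb2 (r = 0.98), the latter a chaperone of class II antigen loading, then Pced1b, Zfp446 and Gm8369. Afmid was nearest to Hcst and Sbf1 (r = 0.92 and 0.91), then Tmem191c, Cmya5 and Prrt1. Wars was nearest to Psmb10 (r = 0.94), an immunoproteasome subunit, then Mrpl40, Fam57a, Bri3bp and Apool.

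Per kilobase, the order of members changed with the group. The full exon length was used, although 44.2% of it is shared with Gm20708 for Afmid and 83.9% with Tbc1d17 for Il4i1. Both may thus be too low, and their places in the orders below are uncertain. In both steady-state nodes Wars, Kmo and Haao formed an upper tier at 12.5 to 15.1 CPM per kilobase, with Afmid and Kynu at 1.96 to 3.00 and Ido1, Ido2 and Il4i1 under 0.05. In joint migrated cells Haao (5.37), Kmo (4.76), Kynu (3.58) and Afmid (2.77) lay close together under Wars (20.3). In skin migrated cells Kynu (5.07 ± 0.68 SD) and Haao (4.88 ± 0.56) did not differ beyond their spread, and Kmo (1.84 ± 0.09) and Afmid (1.73 ± 0.22) followed. In joint nonmigrated cells Kmo (3.08 ± 0.50) led Haao (1.93 ± 0.26), and Kynu was at 0.70 ± 0.10 (all n = 3). Ido1 exceeded Ido2 in the mean of every group, at 0.93 ± 0.06 CPM per kilobase in skin migrated cells against 0.28 ± 0.08 for Ido2.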

How the data were processed

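RNA was measured by paired-end sequencing in 18 libraries, each from a pool of mice, in 6 groups of 3 assigned from the sample labels alone. Per the methods and the submitters' processing notes, the authors trimmed reads with Trim Galore, aligned them with TopHat2 to mm10 with Ensembl models and counted them with HTSeq-count in its default mode. The deposited unit is raw counts per gene. With this mode, reads that fall in exons of more than 1 gene are left out. They made up 1.84% to 2.37% of the total over genes and summary lines in a library, those with no feature 0.0925% to 0.562% and those not aligned uniquely 9.24% to 12.7%. These 5 summary lines were removed. No strand option is named beside these defaults, under which HTSeq-count reads a library as stranded, and whether the library kit kept strand was not given in the sources used here. Of 49585 genes, 49326 matched GENCODE M21, from which symbols, positions and exon lengths were taken.

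The test was the quasi-likelihood F test of edgeR 4.0.16 under R 4.3.3, on counts normalized by the trimmed mean of M-values, after filterByExpr at its minimum of 10 reads. The 12 inflamed libraries were fitted together (16777 genes) and the 12 lymph node libraries together (17107 genes), with group as the only factor. Calls needed a Benjamini-Hochberg adjusted p below 0.05 over all genes and a log2 fold change beyond 1 in either direction, as in the study's methods. CPM refers to the scaled library sizes. Counting intervals are exact binomial intervals of summed reads at 95%. On simulated counts for joint migrated against joint nonmigrated cells, the fit recovered 87% of genes changed by 2 on the log2 scale. It recovered 98% of those changed by 3, with 7 false calls among 16777 genes. Changed genes were drawn from those with a mean above 1 CPM, and all others had the same mean in every group. Recovery at the lower levels of Ido1 and Ido2 was not simulated. Chi-square per degree of freedom between libraries of a group was 16.2 to 130, so no library was a duplicate of another.

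The members and lists were chosen with earlier results of these data known. A gene in each of 2 lists is not reported here and was left out of its list. Genes named beyond the members are those called in the lists, those overlapping a member, and the 5 protein-coding genes most correlated with each member above a mean of 1 CPM. Fits with DESeq2 1.42.0 and other alternatives were run. The replicate numbers of the labels were checked for pairing, and the check is given with the alternatives. Promoter windows are from RefSeq (GRCm38.p6).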

Additional observations from a re-analysis of the deposited data

Results flagged for a closer look

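For 5 member differences, the size of a change differed between joint and skin, as tested by the interaction term of the edgeR fit at an adjusted p under 0.05. For Kmo the change from nonmigrated to migrated cells was 2.14 ± 0.46 higher at the joint than at the skin on the log2 scale (adjusted p = 0.0178), with a joint value of 0.63 and a skin value of -1.51. For Haao the same difference was 0.87 ± 0.23 (adjusted p = 0.043), with 1.48 at the joint and 0.61 at the skin.

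For the change from the steady-state node to migrated cells, the difference between joint and skin was 1.42 ± 0.14 for Kmo (adjusted p = 8.24e-05) and 1.17 ± 0.22 for Afmid (adjusted p = 0.00541). For Kynu it was -0.79 ± 0.20 (adjusted p = 0.0264), so the rise was the smaller one at the joint. Depth, column naming and site moved together in the inflamed skin libraries and cannot be told apart. B cell markers summed to 498 to 709.9 CPM in joint migrated and 86.8 to 158 CPM in skin migrated cells. They moved with Kmo in the node change (4 of 4 relatively higher at the joint, against 2.33% of all genes), and their part was not tested. In the migration change they did not move with Kmo, with 0 of 4 relatively higher and 2 lower at the joint (3 lower without skin nonmigrated replicate 3). Of all genes, 3.96% were relatively higher and 2.17% lower there.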

How the results depend on the processing

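Over the alternatives run, 395 of 416 refitted values of the called member differences kept their direction and call, 21 lost the call and 0 changed direction. With an adjusted p under 0.001, the members called were 1 for skin migrated against nonmigrated cells, 0 for joint against skin nonmigrated cells, 0 for the migration change between sites and 1 for the node change between sites. With no minimum fold change they were 2 for joint against skin nonmigrated cells, 2 for the migration change and 7 in the joint-draining node. For joint against skin nonmigrated cells the single call, Ido1, was lost (0 called) with no filter on low counts, with the replicate block and in a fit of only the groups compared. For joint against skin migrated cells Kmo gave 1 call with no filter on low counts, in the fit of all 18 libraries, in the fit of only the groups compared and with DESeq2. The causes were not tested.

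Leaving out 1 library at a time gave 4 to 5 member calls in joint migrated against nonmigrated cells (5 with Afmid), 0 to 1 calls for joint against skin nonmigrated cells, 0 to 1 for joint against skin migrated cells and 0 to 2 for the migration change (0 without joint nonmigrated replicate 2, 2 without skin nonmigrated replicate 3). Of 34 changes of sign, 0 concerned a called difference and the largest value was 0.149. For joint against skin nonmigrated cells Afmid gave 0.00871 with no filter, and Wars gave -0.00494 with DESeq2 size factors, -0.00189 with DESeq2 and -0.00904 with the replicate block. Leaving out libraries gave ranges across 0 for Wars of -0.0542 to 0.172 (joint migration), -0.0793 to 0.146 (nonmigrated groups), -0.115 to 0.0422 (migrated groups), -0.219 to 0.0213 (migration change), -0.045 to 0.0441 (steady-state nodes) and -0.101 to 0.0593 (node change). The other such ranges were -0.172 to 0.0339 for Afmid in nonmigrated cells, -0.149 to 0.25 for the Kynu migration change, and -0.129 to 0.00625 for Kmo and -0.0783 to 0.148 for Haao between the steady-state nodes.

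With the replicate number as a block, the call of Ido1 between the nonmigrated groups was lost (adjusted p = 0.0719), and 0 other member calls changed. Between migrated and nonmigrated cells, deviations of same-numbered libraries correlated at 0.021 to 0.254 at the joint and 0.0735 to 0.173 at the skin. Those of different-numbered libraries ran from -0.218 to 0.0384 at the joint and from -0.123 to 0.0294 at the skin. Same-numbered values thus lay above all others at the skin and mostly above them at the joint. Between joint migrated and joint steady-state libraries same-numbered values were -0.185 to -0.133. Migrated and nonmigrated libraries may thus be paired by number, which the labels do not state. The main fit took no pairing into account. A fit of only the groups compared could not be made for the 2 differences between sites. Of the members' group means in CPM, 11 moved by more than 1 SD with plain library totals, and 85 of the values under plain totals or DESeq2 size factors did not. Depth limits Ido1, Ido2 and Il4i1, where 3 reads were worth 0.0616 to 0.18 CPM.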
